A study of Mus musculus with 40 samples.

Results

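Lipid droplets are stores of triglyceride and sterol ester under a protein coat, and 10 genes of that coat and of its breakdown and filling were followed here in hypothalamic astrocytes of mice. The members were taken by symbol from a list, which was chosen with earlier results of these data known. They were the coat proteins Plin2, Plin3, Plin4 and Plin5, the lipases Pnpla2, Lipe and Mgll, the triglyceride synthases Dgat1 and Dgat2, and the lipase inhibitor Hilpda. All 10 were among the 26792 gene symbols of the deposited count table.

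In a droplet, perilipins cover the surface and regulate which lipases reach the lipid. Pnpla2 (adipose triglyceride lipase) removes the first fatty acid from triglyceride, Lipe (hormone-sensitive lipase) acts mainly on the diglyceride that is left, and Mgll (monoglyceride lipase) releases the last fatty acid. Dgat1 and Dgat2 carry out the final step of triglyceride synthesis, and Hilpda, a small protein induced by hypoxia and fatty acids, inhibits Pnpla2. Astrocytes form droplets under lipid load, and in brain Mgll also breaks down the endocannabinoid 2-arachidonoylglycerol.

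The tissue was the dissected hypothalamus of Aldh1l1 eGFP-L10a mice, in which a green fluorescent tag on a ribosomal protein marks the ribosomes of cells that use the Aldh1l1 promoter, mainly astrocytes. Immunoprecipitation of the tag (translating ribosome affinity purification) gave a pull-down library, and the unbound rest gave a supernatant library. The groups were orchiectomised mice on a high-fat diet (ORX, HFD, 7 samples), sham-operated mice on that diet (sham, HFD, 6 samples) and sham-operated mice on chow (sham, chow, 7 samples), with 4 weeks of diet. Every sample had both fractions, which makes 40 libraries, and the tagged transgene was present in all groups. An orchiectomised group on chow was not analysed here, so testis removal was compared on the high-fat diet alone. The sources used here do not give the mice's age or how many mice made up a sample. The p-values therefore measure the spread between these samples, some of which may be technical.

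The libraries were of polyadenylated RNA, with tags from the 3′ end of each message. Totals ran from 7714834 to 20792175 counts in the pull-downs and from 8739276 to 12931869 in the supernatants. All 12 astrocyte markers were higher in the pull-down (their median log2 fold change was 4.65), and Aldh1l1 itself had 4.89 ± 0.24 and Gfap 4.78 ± 0.15 (SE). Their summed level was 31955 to 49974 CPM (counts scaled to library size) in pull-down libraries, against 971 to 3615 CPM in supernatant libraries, so the supernatants still held some astrocyte message. Neuron markers ran the other way, at 281 to 813 CPM in pull-down libraries, against 4242 to 5970 CPM in supernatant libraries, and all 11 were lower in the pull-down. Endothelial markers, from another cell type, were also in the pull-downs, at 205 to 1608 CPM, against 79.0 to 125 CPM in the supernatants. All 8 were higher in the pull-down, with a median of 2.32. Of 8 mural cell markers 6 were higher and 1 lower (median 1.07), and of 6 fibroblast markers 5 were higher and 1 lower (median 0.63). All 9 oligodendrocyte markers were lower, as were 8 of 9 microglia markers. The part of these cells in the member values was not tested. The 7 adipocyte markers in the table summed to 0 to 0.894 CPM in pull-down libraries, against 0.506 to 1.97 CPM in supernatant libraries. Cfd had no count in 17 of 20 pull-downs and in all 20 supernatants. Other markers of this list were detected more often: Adrb3 had no count in 10 pull-downs and 0 supernatants, and Plin1 in 4 pull-downs and 14 supernatants.

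Promoter sequence is given for 3 members that differed in direction between the fractions: the lipases Pnpla2 and Mgll, which were higher in the pull-down, and Hilpda, the inhibitor of Pnpla2, which was lower. RefSeq start sites on GRCm38.p6 were found for 8 of the 10 members, and Dgat1 and Dgat2 had no entry. Each stretch is the 250 bases before a start site on the plus strand, at chr7:141454938-141455187 for Pnpla2, chr6:88724162-88724411 for Mgll and chr6:29272238-29272487 for Hilpda. Capitals mark the E-box CACGTG, the hypoxia response core ACGTG, the GC box GGGCGG and the CCAAT box, each searched on both strands.
Pnpla2: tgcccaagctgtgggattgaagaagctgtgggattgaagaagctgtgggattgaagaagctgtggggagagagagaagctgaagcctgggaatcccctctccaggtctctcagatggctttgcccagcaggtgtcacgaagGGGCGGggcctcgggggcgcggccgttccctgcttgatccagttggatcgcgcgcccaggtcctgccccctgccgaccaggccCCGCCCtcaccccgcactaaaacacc
Mgll: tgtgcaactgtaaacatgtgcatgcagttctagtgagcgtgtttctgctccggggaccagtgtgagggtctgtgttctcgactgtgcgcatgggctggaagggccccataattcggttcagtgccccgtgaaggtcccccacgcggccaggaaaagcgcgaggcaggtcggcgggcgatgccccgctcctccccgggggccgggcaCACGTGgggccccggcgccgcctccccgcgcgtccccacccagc
Hilpda: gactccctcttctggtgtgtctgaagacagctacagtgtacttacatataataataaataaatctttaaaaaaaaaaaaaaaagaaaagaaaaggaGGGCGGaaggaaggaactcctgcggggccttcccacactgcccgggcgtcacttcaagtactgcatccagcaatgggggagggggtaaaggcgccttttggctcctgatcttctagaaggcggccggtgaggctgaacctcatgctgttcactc
The Mgll stretch held CACGTG with its first base 44 bases before the start, and this also contains ACGTG on each strand. Pnpla2 had GGGCGG at 109 bases and, on the other strand, at 26 bases before the start, and Hilpda had it at 154 bases. A second start site of Hilpda, not shown, had ACGTG at 43 bases before it, and Lipe had CACGTG at 155 bases. Of 32851 RefSeq promoter stretches of this length in the mouse, 6.02% held CACGTG, 16.6% ACGTG, 32.7% GGGCGG and 33.8% CCAAT. The direct repeat to which PPAR and RXR factors bind, AGGTCA set next to itself with 1 base between, was in 0.0335% of all promoters and in none of the 12 stretches of the members. These matches describe letters only.

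The first comparison asked which droplet genes the astrocyte pull-down held in excess over the rest of the tissue. Plin2, Pnpla2 and Mgll were about 4 to 5 times higher in the pull-down, Plin3, Plin4 and Lipe were about 2 times higher, and Dgat2, Plin5 and Hilpda were lower. In all, 6 members were higher and 3 were lower with edgeR at an adjusted p under 0.05, and Dgat1 did not pass. Among the 15629 genes tested, 43.1% were higher and 43.7% were lower, so most genes differed between the fractions. Full separation of the fractions, given for some members below, was not counted over all genes. The median log2 fold change was 0.95 over the 10 members and -0.01 over all genes. In such bulk fractions, fewer cells of a type and less RNA per cell cannot be told apart. The fractions also differ in kind of RNA, bound to tagged ribosomes in the pull-down and unbound in the supernatant. Mitochondrial counts made up 0.643% to 1.63% of pull-down libraries and 19.2% to 27.8% of supernatant libraries. The part of this difference in the member values was not tested.

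**Figure D1:**
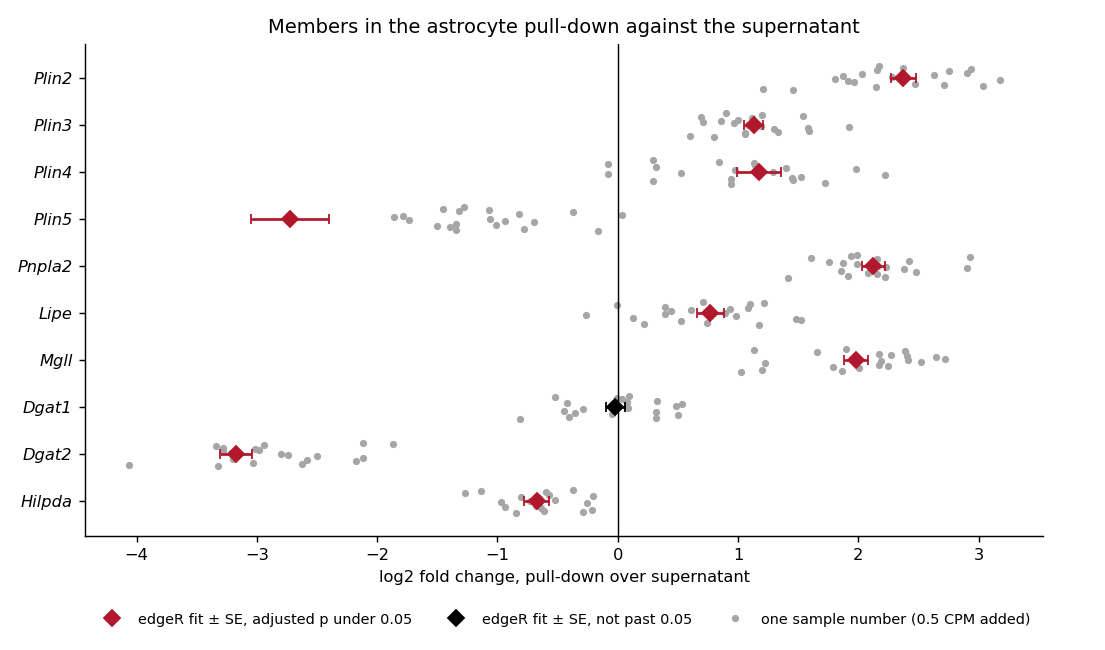
Log2 fold change of each member, pull-down over supernatant, across the bottom, with members down the side; diamonds are the edgeR values ± SE over 40 libraries and grey points are the 20 sample numbers, computed with 0.5 CPM added. Plin2, Plin3, Pnpla2 and Mgll lie right of 0 in all 20 numbers and Dgat2 and Hilpda left of 0 in all 20; for Plin5 the added 0.5 CPM draws the grey points toward 0.

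Among the coats, Plin2 (chromosome 4, 86648386 to 86670060, minus strand, GENCODE M21 on GRCm38) is the perilipin of most non-adipose cells and is bound to the droplet. It had 16.8, 24.2 and 34.0 CPM in pull-down libraries (lowest, median and highest of 20), against 2.65, 4.70 and 9.19 CPM in supernatant libraries. Every pull-down was above every supernatant, and the log2 fold change was 2.37 ± 0.10 (SE, adjusted p = 1.01e-23). Plin3 (chromosome 17, 56277476 to 56292873, minus strand), which moves between the cytosol and new droplets, had 28.8, 37.0 and 46.9 CPM in the pull-downs and 9.85, 17.4 and 23.7 CPM in the supernatants. The ranges again did not overlap, with 1.13 ± 0.08 on the log2 scale (adjusted p = 1.26e-16).

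Plin4 and Plin5 lie next to each other on the minus strand of chromosome 17, at 56100591 to 56109803 and 56111601 to 56117596, 1797 bases apart, and they differed in direction. Plin4, a coat protein best known from white fat and muscle, had 1.87, 4.59 and 8.34 CPM in the pull-downs and 0.354, 1.83 and 6.42 CPM in the supernatants. The ranges overlapped, but the pull-down was higher in 18 of 20 sample numbers, and the log2 fold change was 1.17 ± 0.18 (adjusted p = 2.15e-07). Plin5, the perilipin of oxidative tissues that ties droplets to mitochondria, was close to the limit of detection. It had 29 counts over the 20 pull-downs, 8 of which had none, and 171 counts over the 20 supernatants, where the lowest had 4. Its levels were 0, 0.081 and 0.503 CPM in the pull-downs and 0.458, 0.745 and 1.53 CPM in the supernatants. The pull-down was lower in 19 of 20 numbers, with -2.72 ± 0.32 on the log2 scale (adjusted p = 4.01e-10).

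Plin4 values rest on the count table alone. In a second deposited table Plin4 is listed at 0 in all 40 libraries, 1 of 182 symbols listed at 0 there that have more than 100 counts in the count table, while the other 9 members agree between the tables up to 1 factor per library. The last 17 bases of Plin4 overlap Hdgfl2 on the opposite strand, and no source used here gives the strand setting of the counting. Hdgfl2 had a log2 fold change of -0.20 ± 0.09 between the fractions.

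The 3 lipases were all higher in the pull-down. Pnpla2 (chromosome 7, 141455198 to 141460743, plus strand) had 46.5, 67.9 and 84.6 CPM in the pull-downs and 9.62, 13.8 and 25.1 CPM in the supernatants. Mgll (chromosome 6, 88724412 to 88828360, plus strand) had 234, 368 and 453 CPM in the pull-downs and 59.9, 85.5 and 126 CPM in the supernatants. For both, no pull-down fell within the range of the supernatants. The log2 fold changes were 2.13 ± 0.09 for Pnpla2 (adjusted p = 1.01e-23) and 1.98 ± 0.10 for Mgll (adjusted p = 6.26e-22). Lipe (chromosome 7, 25379527 to 25398710, minus strand) had 5.27, 9.52 and 15.4 CPM in the pull-downs and 3.34, 5.80 and 8.82 CPM in the supernatants. These ranges overlapped, the pull-down was higher in 18 of 20 numbers, and the log2 fold change was 0.77 ± 0.11 (adjusted p = 4.77e-08).

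Genes on the opposite strand run through both of the last loci. Gm26588 overlaps the first 1449 bases of Mgll and had 2.95 ± 0.17 between the fractions, and 4732471J01Rik spans all of Lipe and had -1.09 ± 0.25. Gm43937 also lies within Mgll on the opposite strand, and Gm44005, Gm43999 and Gm44001 lie within it on the same strand. The last 3 had 57, 12 and 20 counts over the 20 pull-downs and 146, 21 and 33 over the 20 supernatants. Without a stated strand setting, reads from the shared stretches cannot be assigned to a gene. For genes on the same strand, such a setting would not separate them. The tags came from 3′ ends, and the annotated 3′ ends of Gm26588 (88716422) and 4732471J01Rik (25566417) lie outside Mgll and Lipe. Those of the genes within Mgll lie inside it. How many reads fell in the shared stretches was not counted.

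The triglyceride synthases parted. Dgat2 (chromosome 7, 99153658 to 99182719, minus strand) is the enzyme most tied to droplets that grow from newly made fatty acids. It had 0.724, 1.57 and 3.76 CPM in the pull-downs and 10.7, 14.7 and 23.9 CPM in the supernatants. Every pull-down was below every supernatant, and -3.17 ± 0.14 on the log2 scale was the largest fall among the members (adjusted p = 5.29e-24). Dgat1 (chromosome 15, 76502015 to 76511953, minus strand), which resides in the endoplasmic reticulum, had 8.88, 12.6 and 19.1 CPM in the pull-downs and 10.2, 13.2 and 16.9 CPM in the supernatants. The pull-down was higher in 10 and lower in 10 of the 20 numbers, and the log2 fold change was -0.02 ± 0.08 (adjusted p = 0.831). An interval of 2 SE around that value ran from -0.18 to 0.14.

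The inhibitor Hilpda (chromosome 6, 29272488 to 29275446, plus strand) had 5.16, 8.01 and 13.1 CPM in the pull-downs and 9.62, 13.5 and 20.3 CPM in the supernatants. The ranges overlapped, yet the pull-down was lower in all 20 numbers, with -0.67 ± 0.10 on the log2 scale (adjusted p = 1.02e-07). Hilpda thus lay below 0 while its target Pnpla2 lay above it.

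**Figure D2:**
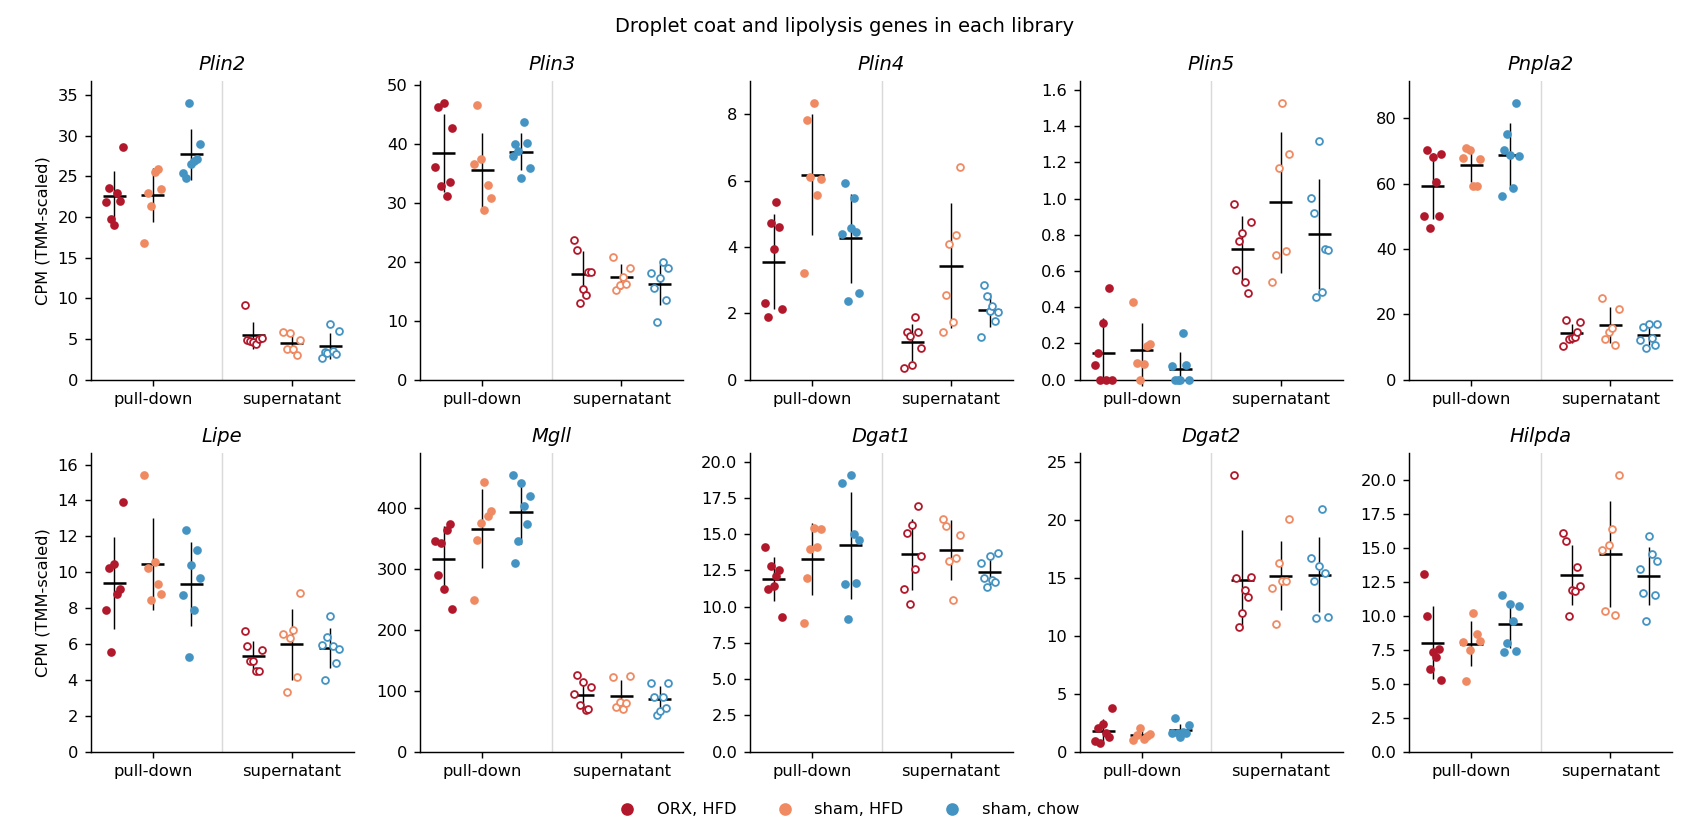
CPM of each member in each of 40 libraries (vertical axes from 0), pull-downs left with filled points and supernatants right with open points, coloured by treatment; bars are means and lines are ± SD (n = 7, 6 and 7). The 2 fractions separate fully for Plin2, Plin3, Pnpla2, Mgll and Dgat2, while the treatment groups overlap in every panel. The share of all genes whose fractions separate fully was not counted.

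Partners of the members were read from lists of known genes. Of 16 other coat and droplet assembly genes tested, 8 were higher and 5 lower in the pull-down, and the median over the list was 0.36 on the log2 scale. Hsd17b11, a droplet-bound dehydrogenase, had 242 CPM in pull-down libraries, against 35.8 CPM in supernatant libraries (2.76 ± 0.07). Cideb, which promotes droplet fusion and lipoprotein loading in liver, had 3.90 ± 0.19, and Rab18, a small GTPase on droplets, had 0.77 ± 0.05. On the other side were Bscl2 (seipin, which shapes forming droplets) with -0.87 ± 0.06, Rab3gap2 with -0.25 ± 0.06 and Fitm2, which helps droplets bud, with -0.23 ± 0.06.

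Of 18 other lipases and lipase regulators, 8 were higher and 9 lower, with a median of -0.14. Abhd5, the coactivator of Pnpla2, had 47.2 CPM in pull-down libraries, against 15.6 CPM in supernatant libraries, a log2 fold change of 1.61 ± 0.06. Pnpla7 had 3.51 ± 0.12 and Pnpla8 0.94 ± 0.06. G0s2, an inhibitor of Pnpla2 named after its value was seen, was higher, with 0.74 ± 0.10, whereas the inhibitor Hilpda was lower. Ddhd2, a neuronal triglyceride lipase, had -1.66 ± 0.06, and the protein kinase A subunits Prkacb and Prkaca, whose kinase phosphorylates Lipe and perilipins, had -1.42 ± 0.06 and -1.51 ± 0.10.

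All 21 tested genes of earlier glycerolipid and sterol ester synthesis passed, 14 higher and 7 lower, with a median of 1.19. Soat1, which makes sterol esters, had 3.10 ± 0.09, the acyltransferase Agpat5 2.77 ± 0.08 and the glycerol kinase Gk 2.37 ± 0.07. Agpat4 had -2.99 ± 0.09, the acyl-CoA synthetase Acsl4 -1.78 ± 0.08 and Acsl5 -1.54 ± 0.11. Of 18 PPAR factors and targets, a group that takes in fatty acid oxidation, 15 were higher and 1 was lower, with a median of 1.95. Ppara, the nuclear receptor, had 4.93 ± 0.15, and Cpt1a, which admits fatty acids to mitochondria, had 4.21 ± 0.12. The coactivator Ppargc1b was the one that was lower, at -1.63 ± 0.09. Of 15 hypoxia-inducible factors and targets, 11 were higher and 4 lower, with a median of 0.44. Epas1 had 3.30 ± 0.08, Hif1a 1.89 ± 0.06 and Egln1, an oxygen sensor, 1.37 ± 0.06, while Ndrg1 had -1.87 ± 0.19 and Bnip3 -0.38 ± 0.05. Hilpda, itself a known target of these factors, was lower in the pull-down, where the messages of Epas1 and Hif1a were higher. The activity of these factors was not tested.

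**Figure D3:**
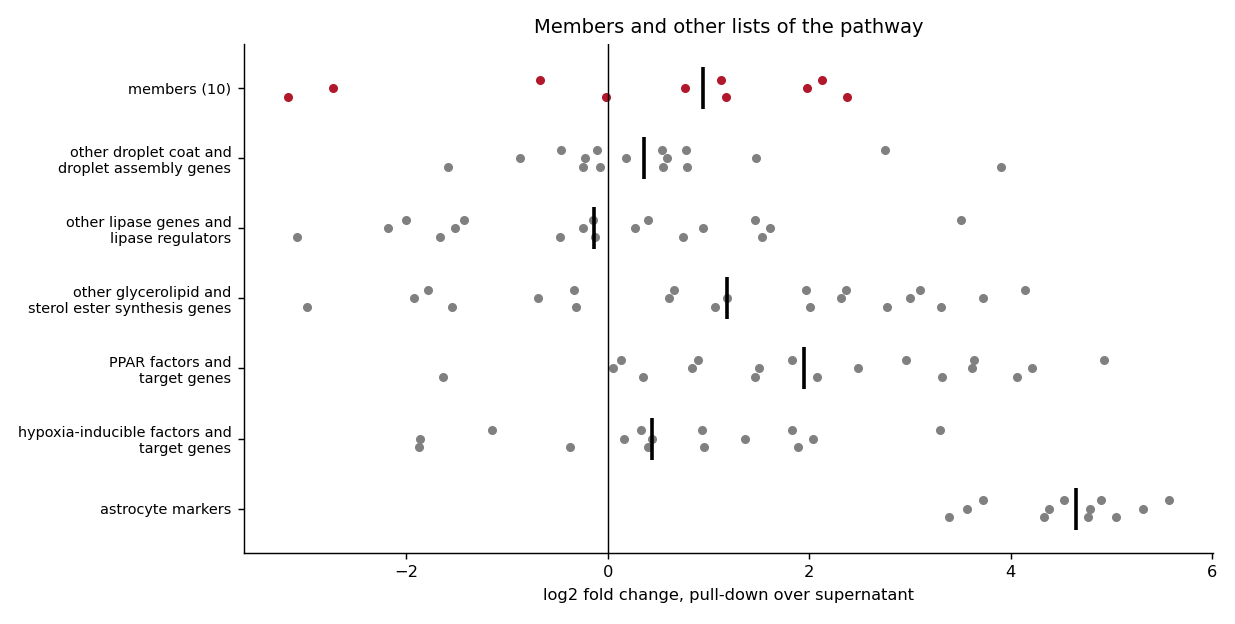
Log2 fold change of every tested gene, pull-down over supernatant, for the 10 members (red), 5 lists of related genes and the astrocyte markers (grey); black bars are medians. The medians are 0.95 for the members, 0.36, -0.14, 1.19, 1.95 and 0.44 down the lists, and 4.65 for the astrocyte markers.

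The second set of comparisons asked whether diet or orchiectomy changed these genes in either fraction. With edgeR no member passed an adjusted p of 0.05 in any of them. Plin4 had the largest values in the supernatant, where it was about 3 times lower in ORX mice than in sham mice on the same diet, and it is described first. Plin5 was too low to be tested within a fraction, so 9 members were tested in each. No member's treatment groups were fully apart in either fraction, and between 0.0205% and 0.206% of all genes tested had groups fully apart, depending on the comparison.

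For orchiectomy, 0% of 14628 genes passed in the supernatant and 0% of 14059 in the pull-down with edgeR. At an unadjusted p under 0.05 there were 439 and 918 genes, with 1 member among them in each fraction, Plin4 both times. DESeq2 called 3 genes in the supernatant, Plin4 among them, and 11 in the pull-down, with 0 members.

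Plin4 had 0.354, 1.31 and 1.89 CPM in the supernatants of ORX, HFD mice (lowest, median and highest of 7), 1.43, 3.32 and 6.42 CPM in those of sham, HFD mice (6 samples) and 1.28, 2.07 and 2.86 CPM in those of sham, chow mice (7 samples). The ORX libraries lay low, with 86 counts in all against 210 in the sham, HFD libraries, but their highest values overlapped the lowest of the sham mice. The log2 fold change for ORX over sham on HFD was -1.60 ± 0.35 (edgeR adjusted p = 0.627, DESeq2 adjusted p = 0.0488), the fourth smallest p of 14628 genes. Of the alternatives, DESeq2 alone called it. The adjusted p was 0.374 with edgeR without the low-count filter, 0.641 with edgeR and RLE scaling and 0.949 with limma voom. With edgeR it was 0.9997 without the sample numbers rich in Gm42418, which are described below. Leaving out any 1 supernatant library, edgeR gave between -1.78 and -1.32, with adjusted p from 0.310 to 0.9995. The least extreme value came without the highest library, sham, HFD number 20, with 6.42 CPM.

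In the pull-down, Plin4 had 1.87, 3.94 and 5.35 CPM in ORX, HFD mice, 3.21, 6.08 and 8.34 CPM in sham, HFD mice and 2.36, 4.45 and 5.93 CPM in sham, chow mice. The groups overlapped, and ORX over sham on HFD gave -0.78 ± 0.27 (adjusted p = 0.741). The difference between the fractions was itself tested: the ORX value in the pull-down minus that in the supernatant was 0.81 ± 0.45 (adjusted p = 0.941). Hdgfl2, the gene that overlaps the end of Plin4, had -0.003 ± 0.165 for ORX in the supernatant and 0.03 ± 0.12 in the pull-down. Adipocyte markers summed to 0.630 to 1.97 CPM in the supernatants of ORX mice, 0.506 to 1.75 CPM in those of sham, HFD mice and 0.916 to 1.97 CPM in those of sham, chow mice. These sums were low in every group but of the same order as Plin4 there. The part of adipocytes in the Plin4 value was not tested. Astrocyte markers in the supernatant summed to 1340 to 3615 CPM in ORX, HFD mice and 1198 to 3432 CPM in sham, HFD mice; the ranges overlap, but all 12 markers had positive values for orchiectomy, with a median of 0.37 on the log2 scale. All 5 red blood cell markers were positive too, with a median of 0.67. With edgeR no marker in either list had an unadjusted p under 0.05, and their part in the Plin4 value was not tested. Endothelial markers in the pull-down reached 309 to 1608 CPM in ORX, HFD mice, 229 to 994 CPM in sham, HFD mice and 205 to 792 CPM in sham, chow mice, and their part in the pull-down values was not tested.

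The other members had smaller values for orchiectomy, and none passed the test. In the pull-down, Plin2 had 19.1, 22.0 and 28.5 CPM in ORX, HFD mice and 16.8, 23.2 and 26.0 CPM in sham, HFD mice, with 0.001 ± 0.113 on the log2 scale, and Plin3 had 0.13 ± 0.11. The lipases had -0.14 ± 0.11 for Pnpla2, -0.14 ± 0.19 for Lipe and -0.20 ± 0.13 for Mgll. The synthases had -0.15 ± 0.16 for Dgat1 and 0.36 ± 0.32 for Dgat2, which was 0.10 without ORX, HFD number 22, and Hilpda had 0.03 ± 0.19. Adjusted p-values of the 9 members tested were 0.741 or above. In the supernatant, the 8 members other than Plin4 lay between -0.24 for Pnpla2 and 0.27 for Plin2. The Plin2 value there rested in large part on the ORX, HFD number 2 library, at 9.19 CPM where the other 6 had 4.33 to 5.11 CPM: without it the value was 0.09.

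For diet, sham mice on HFD were set against sham mice on chow. With edgeR 0% of 14059 genes passed in the pull-down and 0% of 14628 in the supernatant, and DESeq2 also called 0 in each; at an unadjusted p under 0.05 there were 240 and 206 genes, of which 1 and 0 were members. The 1 member was Plin2 in the pull-down, with 16.8, 23.2 and 26.0 CPM in sham, HFD mice and 24.8, 26.9 and 34.0 CPM in sham, chow mice. Most HFD libraries lay below the chow libraries, but 2 of the 6 lay within their range, and the log2 fold change was -0.30 ± 0.11 (adjusted p = 1.00). In the supernatant Plin2 had 3.03, 4.31 and 5.82 CPM in sham, HFD mice and 2.65, 3.37 and 6.88 CPM in sham, chow mice, a value of 0.11 ± 0.24.

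Plin4 had positive values for diet in both fractions, 0.53 ± 0.27 in the pull-down (adjusted p = 1.00) and 0.69 ± 0.34 in the supernatant (adjusted p = 0.904). Without sham, HFD number 20 the supernatant value was 0.43. These comparisons share the sham, HFD libraries with those of orchiectomy, so a high sham, HFD level enters both with opposite sign. Among the lipases, diet gave -0.08 ± 0.11 for Pnpla2, 0.14 ± 0.19 for Lipe and -0.11 ± 0.13 for Mgll in the pull-down. In the supernatant they had 0.29 ± 0.19, 0.04 ± 0.19 and 0.09 ± 0.18 in that order. Dgat1 had -0.11 ± 0.16 and Dgat2 -0.40 ± 0.31 in the pull-down, against 0.15 ± 0.12 and -0.02 ± 0.17 in the supernatant. Hilpda had -0.25 ± 0.19 in the pull-down and 0.15 ± 0.16 in the supernatant.

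ORX mice on HFD were also set against sham mice on chow, where both factors differ. With edgeR 0.0142% of 14059 genes passed in the pull-down, which is 2 genes, and 0% of 14628 in the supernatant; DESeq2 called 12 and 1, no member among them. At an unadjusted p under 0.05 there were 1566 genes in the pull-down, 3 of them members, and 331 in the supernatant, 1 of them a member. The 3 in the pull-down were Plin2 with -0.30 ± 0.11 (adjusted p = 0.375), Mgll with -0.31 ± 0.12 (adjusted p = 0.413) and Pnpla2 with -0.22 ± 0.10 (adjusted p = 0.445). Mgll had 234, 342 and 373 CPM in ORX, HFD mice, 249, 380 and 442 CPM in sham, HFD mice and 309, 404 and 453 CPM in sham, chow mice, and all 3 groups overlapped. Pnpla2 had 46.5, 60.5 and 70.4 CPM in ORX, HFD mice, 59.2, 67.6 and 70.9 CPM in sham, HFD mice and 56.3, 68.6 and 84.6 CPM in sham, chow mice. Gm26588, which overlaps the start of Mgll, had -0.68 ± 0.20 in this comparison (adjusted p = 0.369), the same direction as Mgll. In the supernatant the 1 member was Plin4, with -0.91 ± 0.36 (adjusted p = 1.00). Of the 9 members tested in the pull-down 8 had values below 0, with a median of -0.22 where all genes had 0.004. In the same comparison the 8 endothelial markers all had positive values, with a median of 1.07 and 7 at an unadjusted p under 0.05, and their part in the member values was not tested.

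**Figure D4:**
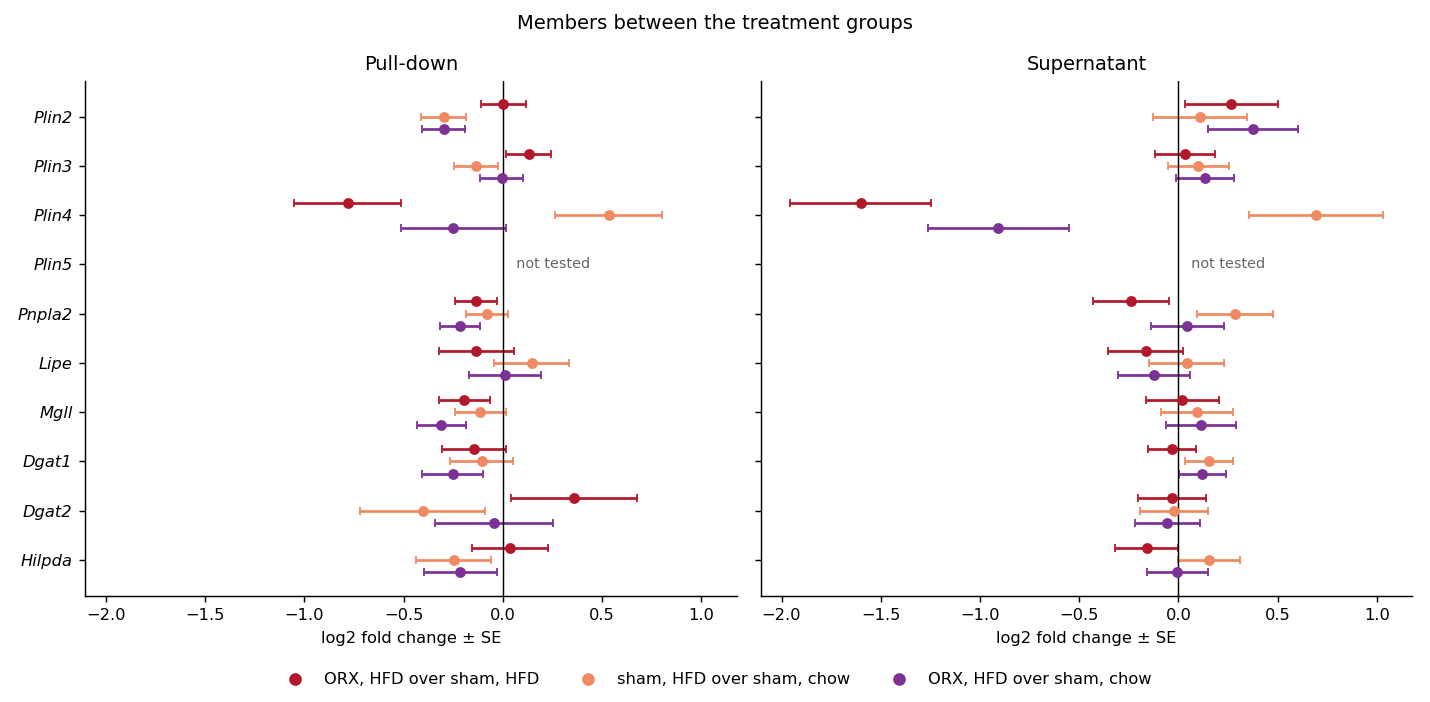
Log2 fold changes ± SE of the members between treatment groups in the pull-down (left) and the supernatant (right); red is ORX, HFD over sham, HFD, orange is sham, HFD over sham, chow, and purple is ORX, HFD over sham, chow. Plin4 in the supernatant reaches -1.60 for orchiectomy, while the members other than Plin4 lie between -0.40 and 0.38 in both panels.

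Plin5, tested only over all 40 libraries, had 12, 12 and 5 counts in the pull-downs of ORX, HFD, of sham, HFD and of sham, chow mice, and 55, 59 and 57 counts in their supernatants in the same order. Effects that differed between the fractions were sought for all 10 members. With edgeR 0% of 15629 genes passed for diet and 0.0064% for orchiectomy, which is 1 gene and no member, and DESeq2 called 4 and 6 genes, none a member. At an unadjusted p under 0.05 there were 399 genes for diet and 692 for orchiectomy, with 0 members in each. For diet the member values ran from -0.41 ± 0.25 for Plin2 to 1.00 ± 0.83 for Plin5, and for orchiectomy from -0.28 ± 0.25 for Plin2 to 0.81 ± 0.45 for Plin4. With edgeR, none of the genes in the 5 related lists was called in any treatment comparison or interaction.

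Mgll, Dgat1 and Lipe varied among the pull-downs alongside several library measures. Gm42418, whose locus lies over ribosomal RNA repeats, made up 13.3% to 18.2% of all counts in 4 pull-downs and 1.07% to 8.51% in the other 16; the 4 were numbers 11 and 22 of ORX, HFD, number 1 of sham, HFD and number 8 of sham, chow. Mgll had 234 to 309 CPM in those 4 and 289 to 453 CPM in the other 16. Dgat1 had 8.88 to 11.6 CPM in the 4 and 9.18 to 19.1 CPM in the other 16, with a median of 14.0 CPM, so it too lay low. Lipe lay high, at 10.5 to 15.4 CPM in the 4 and 5.27 to 11.2 CPM in the other 16. The same 4 libraries were also high in neuron markers, at 535 to 813 CPM and 281 to 484 CPM in the other 16, and in mitochondrial counts, at 0.856% to 1.63% and 0.643% to 1.01%. Their endothelial markers summed to 792 to 1608 CPM, and those of the other 16 to 205 to 1300 CPM. Over the 20 pull-downs, r was taken between log2 CPM and the log2 of each measure. Mgll had r of -0.84 with the Gm42418 share, -0.83 with endothelial markers, -0.77 with the mitochondrial share and -0.75 with neuron markers. Lipe had 0.55, 0.61, 0.77 and 0.74 with the same measures, and Dgat1 had -0.70, -0.52, -0.58 and -0.49. Members also varied with such measures among the 20 supernatants. On the same scale, r with the Gm42418 share ran there from -0.78 for Dgat2, -0.75 for Hilpda and -0.73 for Plin3 up to 0.19 for Plin4. With neuron markers it ran from -0.79 for Pnpla2 to -0.02 for Plin5. The part of each measure was not tested in either fraction. Without these 4 sample numbers, ORX, HFD over sham, chow in the pull-down gave -0.25 for Mgll, -0.30 for Pnpla2 and -0.35 for Plin2, all with adjusted p of 0.361 or above.

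**Figure D5:**
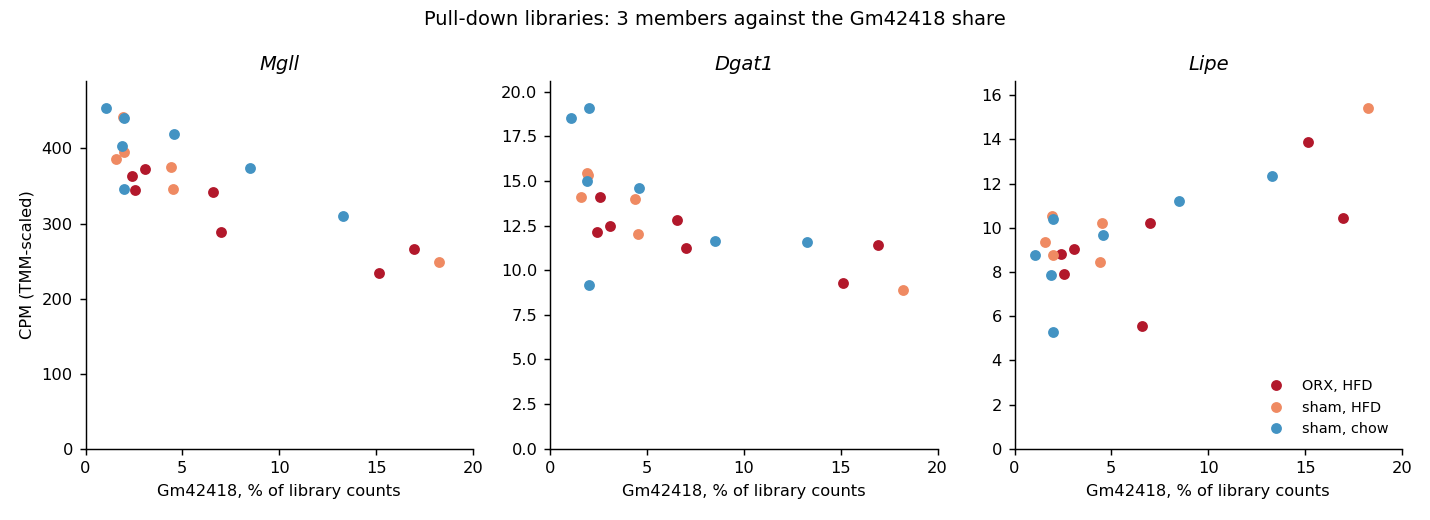
CPM of Mgll, Dgat1 and Lipe in the 20 pull-down libraries (vertical axes from 0) against the share of counts taken by Gm42418, coloured by treatment. Mgll and Dgat1 lie low and Lipe lies high in the 4 libraries above 13%, which come from all 3 groups.

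Likeness was measured as Pearson's r of log2 CPM across the 20 pull-downs after removing group means, over 9786 genes. It describes these libraries, which also differed in depth and Gm42418 share, and the part of these differences in r was not tested. Mgll was most like Pptc7, Mrps6 and Tspan3, with r of 0.96 for each. Among the genes most like Lipe were Zdhhc20 and Eml2 (0.93 and 0.92), and among those most like Dgat1 were Clcn4 and Ckap4 (0.91 and 0.90). Pnpla2 had Arsk, Exosc10 and Zfp869 (0.83, 0.81 and 0.81), and Plin3 had Tsga10, Rcbtb1 and Hbb-bt (0.82, 0.81 and 0.79). Plin2 had Phkg2, Tuba1b and Las1l (0.80, 0.79 and 0.79), and Hilpda had Lrpprc, Mapk10 and Ankra2 (0.77 for each). Plin4, Plin5 and Dgat2 averaged under 5 CPM in the pull-downs and were left out of this measure. Between members the highest r was 0.84, for Mgll and Dgat1, and the lowest was -0.62, for Plin3 and Mgll.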

How the data were processed

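Polyadenylated RNA of pull-down and supernatant fractions was sequenced as 3′ tags, per the labels. Per the submitters' processing notes, the tools were Trim Galore (version 0.6.4) and Salmon (version 1.9.0) on GRCm38; no source used here gives the annotation, strand setting or gene summing. In the main deposited table each gene symbol has an estimated count, and 12.7% of values above 0 carry decimals; they were rounded here. A second deposited table holds a scaled signal, used only for an alternative with limma on log2(value + 1), where fold changes of low genes are understated.

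Libraries were grouped by the labels. The main test was edgeR quasi-likelihood (version 4.0.16, R 4.3.3; TMM scaling, filterByExpr with a minimum count of 10, robust fit), with p-values adjusted by Benjamini-Hochberg over all genes tested and called under 0.05. The 20 libraries of each fraction were fitted apart for treatment and all 40 together for the fractions and interactions. Standard errors came from the F statistic; CPM are TMM-scaled over 40 libraries. DESeq2 1.42.0, limma voom 3.58.1, RLE scaling, no filter, leaving out libraries or the sample numbers rich in Gm42418, and the sample number as a block were alternatives. The fits were tested on simulated data. PCR copies cannot be told from molecules, so the spread between samples sets the error.

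Pull-down and supernatant libraries carry a shared sample number, per the labels, which do not say that it is 1 mouse; their deviations from group means correlated weakly (median r 0.03, from -0.07 to 0.15 over 20 pairs). The members and lists were chosen with earlier results of these data known. Named beside the members were, per list, up to 3 called genes per direction with the smallest p and a mean of at least 5 CPM between the fractions, any called gene elsewhere, the 3 genes most like each member, and Aldh1l1 and Gfap; 3 genes that the rule names are not reported here.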

Additional observations from a re-analysis of the deposited data

Results flagged for a closer look

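In 4 of 60 checks, each of 1 member in 1 group of libraries, 1 library stood apart from the rest of its group by Dixon's criterion. For a single check chance alone gives about 1 in 20, but these checks share libraries and are not independent. The supernatant of ORX, HFD number 2 stood apart for both Plin2 and Dgat2: it had 9.19 CPM of Plin2, where the other 6 had 4.33 to 5.11 CPM, and 23.9 CPM of Dgat2, where they had 10.7 to 15.1 CPM. That library also had the lowest Gm42418 share of the 20 supernatants, 0.127%, and the highest sum of hypoxia-inducible factors and targets, 1039 CPM. Lipe reached 15.4 CPM in the pull-down of sham, HFD number 1, 1 of the 4 pull-downs rich in Gm42418, where the other 5 had 8.47 to 10.6 CPM. Plin5 reached 0.257 CPM in the pull-down of sham, chow number 19, which is 3 counts, where the other 6 had 0 to 0.0825 CPM.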

How the results depend on the processing

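Each treatment group had 6 or 7 samples, and the lowest members rested on few counts, 4 to 67 per supernatant for Plin4 and 0 to 14 per library for Plin5. Between the fractions the 9 called members kept their direction and call under every alternative that gave them a value; Plin4 has none in the second table, which leaves 8 called. Dgat1, near 0, was 0.0454 without the filter and 0.0614 without the Gm42418-rich numbers. RLE scaling moved the median of all genes from -0.01 to -0.08.

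DESeq2 called 11 genes for orchiectomy and 12 for ORX, HFD over sham, chow in the pull-down, 3 for orchiectomy (1 member, Plin4, -1.61) and 1 for ORX, HFD over sham, chow in the supernatant, and 4 for the diet and 6 for the orchiectomy interaction. Voom called 1 for ORX, HFD over sham, chow in the pull-down, and leaving out the Gm42418-rich numbers gave 4 for orchiectomy there. The 1 orchiectomy interaction call fell to 0 under voom, without those numbers, in the second table and with the replicate block. The replicate block, the sample number as a term, changed no member's call, gave 13485 genes called between the fractions where the fit without it gave 13561, and turned Lipe to -0.0384 in that interaction. Of the 20 pairs of libraries that share a number, 5 correlated above 0.1 and 10 pull-downs correlated best with the supernatant of their own number within the treatment group, a hint from the data that the numbers pair the fractions.

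Values near 0 that were not called changed sign; the causes were not tested. For orchiectomy in the pull-down, Plin2 was -0.0014 with RLE, -0.0124 without the filter, -0.0031 with DESeq2, -0.00022 with voom and -0.103 without the Gm42418-rich numbers, which also gave -0.146 for Dgat2; Hilpda was -0.0035 in the second table. Leaving out those numbers gave -0.0834 for Lipe in the pull-down and 0.0163 for Hilpda in the supernatant (ORX, HFD over sham, chow), -0.0285, -0.0632 and -0.0019 for Plin2, Lipe and Mgll (diet, supernatant), 0.0069 for Dgat2 (orchiectomy, supernatant), and -0.0966, -0.106, -0.144 and -0.0373 for Plin3, Pnpla2, Dgat2 and Lipe (orchiectomy interaction). Lipe in that interaction was -0.0074 without the filter, -0.0461 with voom and -0.0429 in the second table, and for diet in the supernatant -0.0060 with voom. Hilpda in the supernatant (ORX, HFD over sham, chow) was 0.0080 without the filter and 0.0038 in the second table. In the diet interaction Plin4 was 0.0199 with voom and Plin5 -0.0036 in the second table.

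Leaving out 1 library at a time gave 0 to 5 genes for orchiectomy and 2 to 4 for ORX, HFD over sham, chow in the pull-down, and 0 to 2 for the same in the supernatant. The members whose sign changed ranged, for orchiectomy in the pull-down, from -0.0729 to 0.0499 (Plin2) and -0.119 to 0.121 (Hilpda). For ORX, HFD over sham, chow they ranged from -0.0565 to 0.0510 (Plin3), -0.0975 to 0.108 (Lipe) and -0.298 to 0.0918 (Dgat2) in the pull-down, and from -0.0344 to 0.118 (Pnpla2), -0.215 to 0.0402 (Dgat2) and -0.0805 to 0.0609 (Hilpda) in the supernatant. For diet in the supernatant they ranged from -0.0934 to 0.165 (Lipe), -0.0184 to 0.174 (Mgll) and -0.112 to 0.0719 (Dgat2). For orchiectomy in the supernatant they ranged from -0.0472 to 0.0902 (Plin3), -0.0579 to 0.134 (Mgll), -0.100 to 0.0201 (Dgat1) and -0.183 to 0.0720 (Dgat2).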
